A study of Mus musculus with 6 samples.

Results

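The genes described here are the Rab GTPases, small proteins that mark the membranes of the secretory and endocytic routes. Members were the symbols in the count files made of Rab, a number and at most 1 letter with 1 further digit, and 58 of 32531 gene symbols met that form. They were sorted by the textbook location of the protein into 8 genes of synaptic and secretory vesicles, 16 of early and recycling endosomes, 9 of late endosomes and lysosomes, 19 of the Golgi and endoplasmic reticulum (ER) and 6 of cilia and other sites. The data were read counts per gene from 6 RNA-seq libraries of adult mouse thalamus, 3 immunopurified (IP) and 3 Input. IP libraries held RNA recovered with tagged ribosomes, by translating ribosome affinity purification (TRAP), from untreated control mice of the line NIDA030. Input libraries came from the same line, tissue and treatment, so every mouse carried Rpl10a, a ribosomal protein, fused to enhanced green fluorescent protein (EGFP), in a construct named for Cbln1. The labels give ribosome-bound RNA as the molecule of both groups, and do not say how many mice stand behind a library, which sex they were or whether they were pooled.

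A Rab protein switches between a form bound to GTP, which sits on a membrane and recruits effector proteins, and a form bound to GDP. Exchange factors (GEFs) load GTP, GTPase-activating proteins (GAPs) end the active state, and GDP dissociation inhibitors (GDIs) draw the protein off the membrane. In neurons, Rab3 proteins sit on synaptic vesicles, Rab5, Rab4 and Rab11 work along the route of endocytosis and recycling, Rab7 carries cargo towards lysosomes, and Rab1, Rab2 and Rab6 serve the Golgi.

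The names of the deposited count tables also mention the thalamic parafascicular nucleus, whereas the labels name the thalamus alone. Assigned counts ran from 45256700 to 57385828 in IP and from 23929070 to 47741219 in Input. Cbln1, for which the line is named, had 1361, 1428 and 1496 CPM in IP, against 68.9, 83.2 and 87.2 CPM in Input. Levels are CPM, counts relative to library size, with library sizes adjusted by the TMM method. Of 10 markers of glutamatergic thalamic neurons, 7 were higher in IP, Cbln1 itself among them, and 1, Rora, was lower (log2 fold change -0.40). Prkcd and Gbx2 were not called. All 10 pan-neuronal markers were higher, and their summed level was 25190 to 29400 CPM in IP, against 12980 to 13920 CPM in Input. All 10 astrocyte markers and all 10 oligodendrocyte markers were lower, with sums of 427.8 to 473.2 and 349.6 to 433.9 CPM in IP, against 1705 to 1780 and 3809 to 4417 CPM in Input. The 10 GABAergic markers summed to 138 to 144 CPM in IP, against 713 to 966 CPM in Input (7 lower), and the 10 microglial markers to 10.5 to 11.4 CPM in IP, against 54.1 to 64.7 CPM in Input (8 lower). Endothelial markers summed to 0.676 to 2.38 CPM in IP, against at least 12.97 CPM in Input (7 of 10 lower, Cdh5 and Cldn5 at 0 in all IP libraries), and 6 of 9 tested ependymal markers were lower. None of the astrocyte, oligodendrocyte, microglial or GABAergic genes was at 0 in all IP libraries. In bulk samples, fewer cells of a type and less RNA per cell cannot be told apart.

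Rab genes were mostly higher in IP. Of the 58, 53 had enough counts to be tested, and by edgeR's quasi-likelihood test with Benjamini-Hochberg adjustment over all 16898 genes tested (threshold 0.05) 31 rose, 5 fell and 17 were not called. Over all genes, 23.3% were called higher and 24.3% lower, against 58.5% and 9.43% of the tested Rab genes. The median log2 fold change of the tested Rab genes was 0.55, beside -0.07 over all genes. Together the 58 genes made up 1.21, 1.24 and 1.24% of assigned counts in IP replicates 1 to 3, against 0.870, 0.933 and 0.931% in Input replicates 1 to 3. Their summed level was 13360 ± 509 CPM in IP. In Input it was 8395 ± 215 CPM (SD over 3 libraries here and below). The 2 groups of sums did not overlap. Rn45s, a ribosomal RNA precursor, took 14.5, 9.38 and 9.74% of assigned counts in IP and 5.40, 5.39 and 5.21% in Input. With it removed, 31 Rab genes were again higher and 5 lower. All 3 IP libraries lay above all 3 Input libraries for 31 of the tested Rab genes and below them for 8, beside 27.9% and 33.7% of all genes (61.6% in either direction).

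Each replicate number carried its own lane code in the labels, shared by its IP and Input library, so the ratio of IP to Input could be read within each. With 0.1 CPM added to both, the median log2 ratio of the 53 Rab genes was 0.56, 0.49 and 0.56 in replicate numbers 1 to 3, and that of all genes -0.10, -0.09 and -0.10. All 36 called Rab genes had the same sign in each of the 3 numbers. Their IP and Input libraries did not overlap, so the shared sign was fixed in advance and adds no separate support. Scaling mattered for the counts of calls. With library totals in place of TMM, 25 Rab genes were higher and 8 lower, so that 75.8% of Rab calls were higher in place of 86.1%, while for all genes 31.9% of calls were higher in place of 48.9%. The median of all genes was then -0.31 and that of Rab genes 0.31. A change of scaling moves all genes by nearly the same amount. The distance between the medians, 0.62 with either scaling, was thus fixed in advance and adds no support. With other filters, which change the genes covered, the distance was 0.39 at a mean of at least 5 CPM and 0.90 with no count filter.

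**Figure D1:**
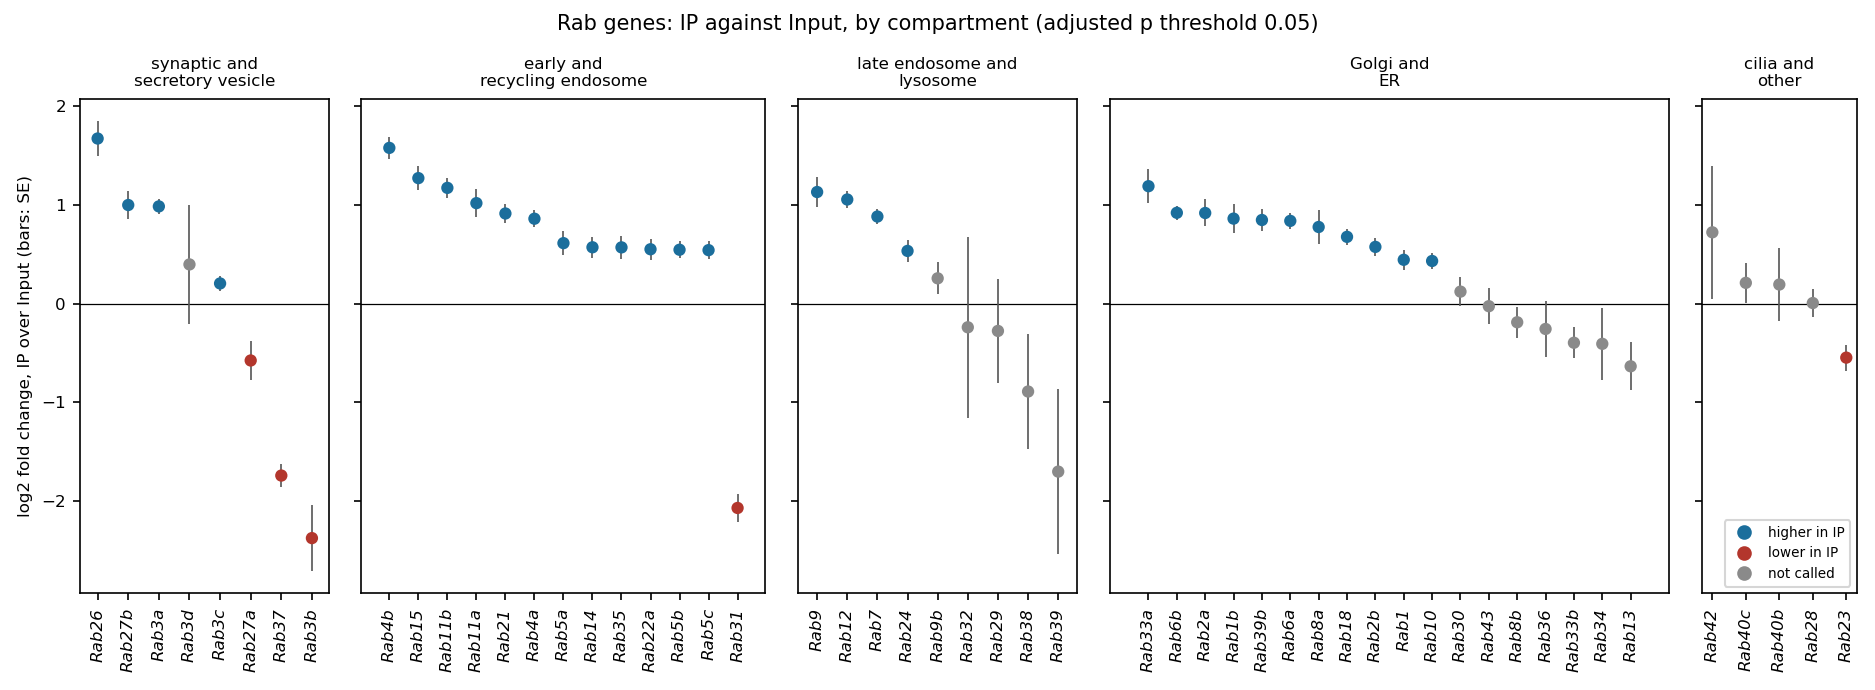
Log2 fold change of IP over Input for the 53 tested Rab genes (y axis), grouped by compartment and ordered by value (x axis); bars show the standard error. Early and recycling endosome genes lie above 0 except Rab31, while vesicle genes run from 1.68 (Rab26) to -2.38 (Rab3b).

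The share of Rab genes called moved with their level. Of 17 members with a mean of at least 100 CPM, 16 rose and none fell, the exception being Rab9b, which was not called, and 56.6% of all genes at that level rose and 14.3% fell. Of 27 members between 10 and 100 CPM, 15 rose and 5 fell, beside 33.7% and 19.0% of all genes there. None of the 9 tested members under 10 CPM was called, beside 4.83% higher and 31.7% lower of all genes at that level. The calls therefore sat among the better-counted members. The 5 members not tested were Rab17 with 0 counts in every library, Rab25 with 0 counts in each IP library and 22, 6 and 7 in Input replicates 1 to 3, Rab19 with 0 in IP and 5, 16 and 0 in Input, Rab44 with 0 in IP and 2, 3 and 0 in Input, and Rab20 with 0, 1 and 0 in IP and 0, 5 and 6 in Input. A count of 0 in an IP library allows a level of up to 0.060 to 0.071 CPM, by counting error alone (3 counts).

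**Figure D2:**
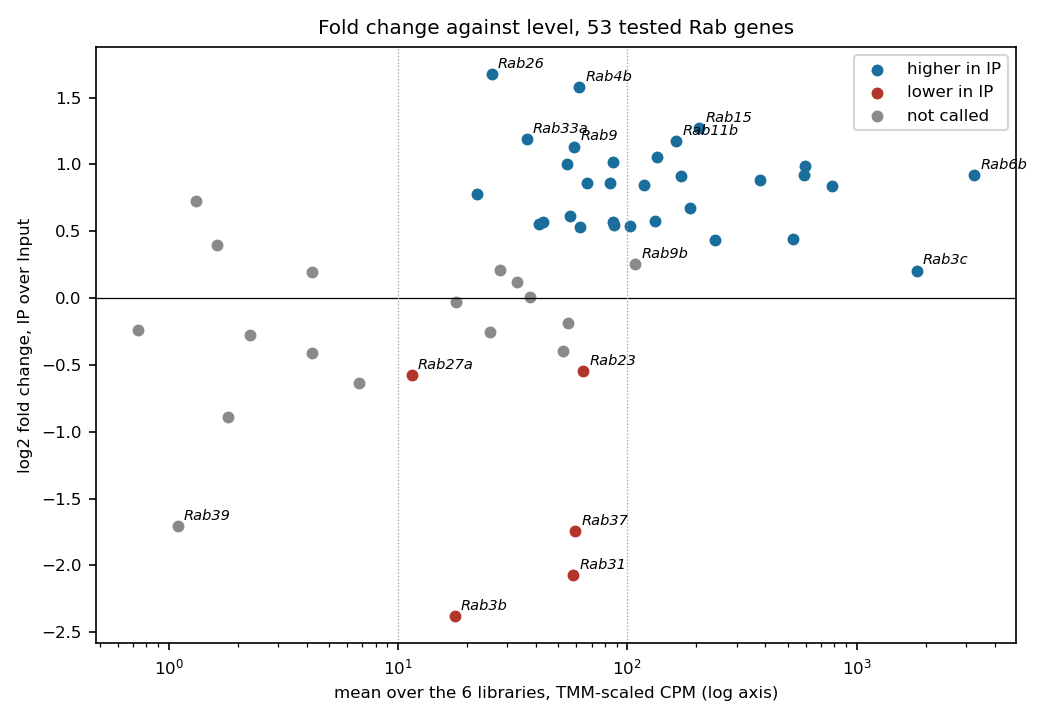
Log2 fold change of IP over Input (y axis) against the mean level over the 6 libraries in CPM (x axis, log scale) for the 53 tested Rab genes; dotted lines mark 10 and 100 CPM. Right of 100 CPM 16 of 17 genes are called higher, and left of 10 CPM none is called.

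Per length of exons, the most abundant Rab RNA in both groups was Rab6b, the neuron-enriched form of the Golgi protein Rab6, at 847 ± 35.5 CPM per kilobase in IP and 447 ± 29.1 in Input. Next in IP came Rab2a (362 ± 74.5 CPM per kilobase) and the vesicle gene Rab3a (354 ± 26.3), which did not differ beyond their spread. In Input these stood at 191 ± 9.09 and 179 ± 5.83 CPM per kilobase. Rab6a (269 ± 26.1 in IP, 151 in Input) followed, then Rab7 (188 ± 13.3 in IP, 102 ± 2.37 in Input). Rab3c (162 ± 12.7 in IP, 141 ± 4.27 in Input) and Rab1 (161 ± 21.7 in IP, 118 ± 4.83 in Input) were close to each other in IP. The first 4 places were the same in both groups. Rab7 was the fifth in IP and the seventh in Input, and Rab4b moved to place 13 in IP, against 28 in Input. Exon lengths came from GENCODE M21, and the annotation used for counting may differ.

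Vesicle genes split. Of 8, all tested, Rab26, Rab27b, Rab3a and Rab3c rose, Rab3b, Rab37 and Rab27a fell, and Rab3d was not called (median 0.30). These calls were 50% higher and 37.5% lower, beside 23.3% and 24.3% of all genes. The 8 genes summed to 2714 to 3021 CPM in IP, against 2254 to 2323 CPM in Input, and most of that sum was Rab3c and Rab3a. With libraries left out, the median ran between 0.12 without replicate number 3 and 0.57 without replicate number 2.

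Rab3a, the main synaptic vesicle Rab of the forebrain and a regulator of the late steps of release, lies at chr8:70754679-70758677 (mm10, plus strand). It had 740.7, 854.0 and 771.3 CPM in IP, against 410.2, 384.4 and 399.7 CPM in Input. Every IP library was well above every Input library. It rose 1.98-fold (log2 fold change 0.99, SE 0.08, adjusted p = 1.71e-05 by edgeR).

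Rab3c, a close relative on the same vesicles, was by count the largest vesicle Rab. Its level was 2108, 1959 and 1802 CPM in IP, against 1657, 1756 and 1680 CPM in Input. The groups did not overlap, but the lowest IP library was close to the highest Input library. The difference was 1.15-fold (log2 fold change 0.20, SE 0.08, edgeR adjusted p = 0.0495). That call was kept in 4 of 18 other settings and lost in the rest, among them the leaving out of IP replicate 1 or 2 or of any 1 Input library (adjusted p between 0.0544 and 0.155), and with library totals the value was -0.04 (adjusted p = 0.710).

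Rab3b went the other way. It lies at chr4:108879063-108943324 (mm10, plus strand) and had 9.06, 4.69 and 3.27 CPM in IP, against 31.5, 26.9 and 30.6 CPM in Input. All IP libraries were low and none overlapped with Input. Rab3b fell by 2.38 on the log2 scale (SE 0.33, edgeR adjusted p = 0.000414), the lowest value of any tested Rab gene. An antisense gene shares 9.00% of its exonic bases in GENCODE, and that gene had 0 counts in every library. Rab3d, known from secretory granules of exocrine cells, was low and overlapped between groups. It had 2.38, 0.937 and 2.24 CPM in IP, against 1.41, 1.96 and 0.842 CPM in Input (edgeR adjusted p = 0.620).

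Within the Rab3 subfamily the shares followed. Rab3a took 65.1, 70.0 and 69.7% of the subfamily's counts per kilobase in IP, against 55.7, 52.9 and 54.8% in Input. Rab3c took 34.3, 29.7 and 30.1% in IP, against 41.5, 44.6 and 42.5% in Input, and Rab3b 0.504, 0.243 and 0.187% in IP, against 2.70, 2.34 and 2.65% in Input. Groups did not overlap for these 3 genes. By exact two-sided permutation test each gave p = 0.1, the smallest that 3 against 3 libraries allow, and an adjusted p of 0.180 over the 27 shares computed in 12 subfamilies. By raw counts, with no length, the differences were 9.98, -8.79 and -1.19 percentage points for Rab3a, Rab3c and Rab3b, in place of 13.8, -11.6 and -2.25 per kilobase.

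Rab26, found on secretory granules and on clusters of synaptic vesicles bound for autophagy, had the largest log2 fold change of any tested Rab gene. It had 36.2, 47.2 and 33.7 CPM in IP, against 12.2, 10.8 and 13.7 CPM in Input, with no overlap. The rise was 3.19-fold (log2 fold change 1.68, SE 0.17, edgeR adjusted p = 7.37e-05). The gene (chr17:24527241-24534210, mm10, minus strand) shares 10.3% of its exonic bases with other genes, mostly Traf7, whose own log2 fold change was 0.15 (adjusted p = 0.677). Its antisense transcript Rab26os stood at 4.69 ± 1.68 CPM in IP and 7.98 ± 1.51 CPM in Input and was not called (adjusted p = 0.0721).

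The granule-docking pair Rab27a and Rab27b diverged. Rab27b had 85.5, 65.1 and 68.7 CPM in IP, against 38.9, 31.1 and 39.8 CPM in Input, and rose (2.0-fold, edgeR adjusted p = 0.000529). Rab27a, best known for moving melanosomes and cytotoxic granules, had 8.18, 11.2 and 8.31 CPM in IP, against 13.8, 12.8 and 14.8 CPM in Input. The groups did not overlap for either gene, but the distance was small for Rab27a, which fell by 0.58 (log2, SE 0.20, adjusted p = 0.0377). Its call was lost without IP replicate 1 or 3, without any 1 Input library, without replicate number 1 or 3, with no count filter and when blocked by replicate number (adjusted p between 0.0532 and 0.246). Rab27b took 79.2, 68.0 and 75.0% of the pair's counts per kilobase in IP, against 50.7, 47.0 and 49.4% in Input.

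Rab37, another secretory granule Rab, fell. It lies at chr11:115091431-115162236 (mm10, plus strand) and had 30.4, 26.8 and 24.6 CPM in IP, against 88.2, 99.7 and 86.5 CPM in Input. The groups were far apart. The log2 fold change was -1.75 (SE 0.12, edgeR adjusted p = 7.55e-06), or 3.36-fold lower in IP. Markers of GABAergic neurons, astrocytes and oligodendrocytes were lower in the same libraries, and their part in the falls of Rab3b and Rab37 was not tested.

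**Figure D3:**
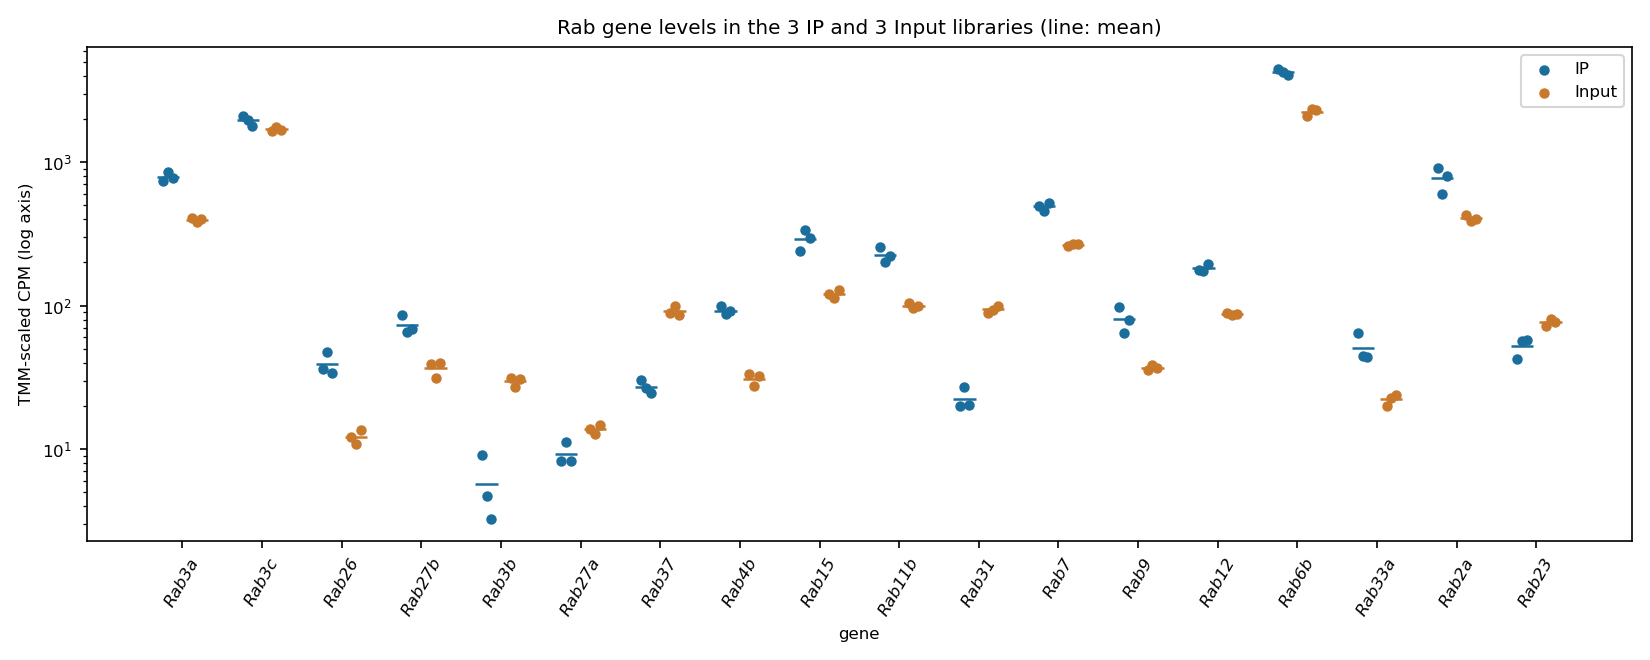
Level of 18 Rab genes (x axis) in TMM-scaled CPM (y axis, log scale) in each of the 3 IP and 3 Input libraries; lines show means. Rab6b and Rab3c are the most counted, and Rab3b, Rab27a, Rab37, Rab31 and Rab23 are those with IP below Input.

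Early and recycling endosome genes rose nearly as a whole. Of 16 members 13 were tested, 12 rose and Rab31 fell (median 0.61). Called higher and lower were thus 92.3% and 7.69%, beside 23.3% and 24.3% of all genes. Of all genes between 10 and 100 CPM 33.7% rose, and of those over 100 CPM 56.6%. Among the risers were all 3 Rab5 genes, which drive fusion of early endosomes, both Rab4 genes of fast recycling and both Rab11 genes of slow recycling. Their summed level was 1577 ± 27.7 CPM in IP and 918 ± 14.5 CPM in Input, 2 narrow ranges far apart. Log2 fold changes of the 12 ran from 0.54 (Rab5c) to 1.58 (Rab4b).

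Rab4b, at chr7:27168424-27178896 (mm10, minus strand), led them. It had 99.5, 86.8 and 91.1 CPM in IP, against 33.1, 27.6 and 32.1 CPM in Input, a 2.99-fold rise (log2 fold change 1.58, SE 0.11, edgeR adjusted p = 9.94e-06). In GENCODE 69.4% of its exonic bases also belong to other annotated genes on the same strand, mostly Gm21983, and how the counting treated reads shared by them is not known here. Rab4a, with no such overlap, had 103.0, 112.2 and 110.7 CPM in IP, against 58.7, 60.2 and 60.5 CPM in Input (a log2 difference of 0.86, SE 0.09, adjusted p = 6.65e-05). Rab4b made up 46.3, 40.8 and 42.3% of the pair's counts per kilobase in IP, against 33.5, 29.0 and 32.1% in Input (exact permutation p = 0.1, adjusted p = 0.180).

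Rab15, a brain-enriched regulator of recycling endosomes, was the most counted member of the compartment. It had 241.2, 336.4 and 293.9 CPM in IP, against 120.4, 112.6 and 127.6 CPM in Input, so the lowest IP library still stood far above the highest Input library (log2 fold change 1.27, SE 0.12, edgeR adjusted p = 4.85e-05). Rab11b had 256.2, 200.9 and 220.2 CPM in IP, against 104.6, 97.0 and 98.6 CPM in Input (a log2 difference of 1.17, SE 0.10, adjusted p = 3.19e-05). Rab11a rose by a similar amount (log2 fold change 1.02, SE 0.14), and the Rab11b share of the pair was 49.0 ± 1.36% in IP and 46.2 ± 1.24% in Input. The Rab5 genes moved together at smaller size, with log2 fold changes of 0.61 (Rab5a), 0.55 (Rab5b) and 0.54 (Rab5c), and their shares of the subfamily overlapped between groups. Rab14, Rab22a and Rab35, which serve other steps of endosomal transport, rose by 0.57, 0.55 and 0.57, and Rab21, which works with integrins, by 0.91 (log2). Rab22a and Rab35 lost their calls with library totals (adjusted p of up to 0.0519 and 0.0687 over all settings), and Rab35 also without replicate number 3.

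Rab31, which moves cargo between the Golgi and endosomes, was the 1 endosomal gene that fell. It lies at chr17:65651729-65772752 (mm10, minus strand) and had 19.8, 26.9 and 20.3 CPM in IP, against 88.8, 93.6 and 100.1 CPM in Input. The groups were separated by a wide gap. The log2 fold change was -2.08 (SE 0.14, edgeR adjusted p = 6.96e-06), or 4.21-fold lower in IP. Astrocyte and oligodendrocyte markers were lower in the same libraries, as given above, and their part in this value was not tested.

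Promoters of 4 genes, 2 that rose and 2 that fell by over 2-fold, are shown so that members that moved apart can be compared by sequence. They are the 250 bases before the start annotated by RefSeq (GRCm38.p6, the build of mm10), 5′ to 3′ on the strand of the gene. Capitals mark letters searched for on both strands. These were the TATA box in the form TATAAA, the box named CCAAT, the GC box in the form GGGCGG, the E-box in the form CACGTG, the full cAMP response element in the form TGACGTCA, and the palindromic NRF1 motif. Neighbouring matches may overlap. The windows lie at chr7:27178884-27179133 (Rab4b, minus strand), chrX:48519035-48519284 (Rab33a, plus strand), chr4:108878820-108879069 (Rab3b, plus strand) and chr17:65772753-65773002 (Rab31, minus strand).
Rab4b: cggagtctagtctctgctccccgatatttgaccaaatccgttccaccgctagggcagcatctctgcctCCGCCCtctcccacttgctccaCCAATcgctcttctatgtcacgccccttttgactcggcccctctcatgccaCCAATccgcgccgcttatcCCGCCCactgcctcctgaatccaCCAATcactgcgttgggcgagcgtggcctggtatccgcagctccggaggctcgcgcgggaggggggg
Rab33a: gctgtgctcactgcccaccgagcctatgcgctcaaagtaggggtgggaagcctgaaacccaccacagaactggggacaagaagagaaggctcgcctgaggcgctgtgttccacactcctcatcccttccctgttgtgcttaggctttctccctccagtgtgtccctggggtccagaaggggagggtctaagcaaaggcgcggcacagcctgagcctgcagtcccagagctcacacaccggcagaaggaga
Rab3b: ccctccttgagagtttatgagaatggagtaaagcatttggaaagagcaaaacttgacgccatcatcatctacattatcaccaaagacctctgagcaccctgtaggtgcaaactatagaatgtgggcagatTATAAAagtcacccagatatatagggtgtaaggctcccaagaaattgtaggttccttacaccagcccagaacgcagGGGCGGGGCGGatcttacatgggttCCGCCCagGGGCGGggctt
Rab31: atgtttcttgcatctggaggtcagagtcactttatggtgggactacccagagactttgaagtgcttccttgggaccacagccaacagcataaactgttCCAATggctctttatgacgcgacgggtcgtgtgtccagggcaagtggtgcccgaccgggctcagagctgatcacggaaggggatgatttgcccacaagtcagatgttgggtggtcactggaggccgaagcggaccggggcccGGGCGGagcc
Rab4b held 5 matches, all to the CCAAT box or the GC box. Rab33a held 0 of the 6. Rab3b held a TATA box and 4 GC boxes, and had the lowest GC content of the 4, at 48.8%. Rab31 held a CCAAT box and a GC box.

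Over all members, 48 of 58 had a promoter in the table. GC boxes stood in 64.5% of 31 windows of genes that rose, 83.3% of 6 windows of genes that fell and 73.7% of 19 windows of genes not called, beside 32.7% of all 32841 windows. CCAAT boxes stood in 48.4%, 33.3% and 36.8% of these windows, beside 33.9% of all. The TATA box was found in 6.45%, 16.7% and 5.26%, beside 12.4% of all windows, the cAMP response element in 3.23%, 0% and 0%, beside 1.55%, and the E-box in 6.45%, 33.3% and 0%, beside 6.02%. The NRF1 letters were in none of the windows of tested Rab genes and in 0.783% of all. The median GC content was 62.8% for genes that rose, 58.2% for those that fell and 57.6% for those not called, beside 52.4% over all windows. Some genes have several windows, and 6 windows of 4 genes are few, so these shares describe the sequences only.

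Late endosome and lysosome genes rose in part. Of 9, all tested, Rab9, Rab12, Rab7 and Rab24 rose, none fell, and 5 were not called. The share called higher was 44.4%, beside 23.3% of all genes (24.3% lower). The median was 0.26, but 0.011 with library totals and 0.72 over members of at least 5 CPM. Means of the 4 that rose were 73.9 to 492 CPM in IP and 36.8 to 267 CPM in Input, whereas Rab29, Rab38, Rab39 and Rab32 stood at means of 0.514 to 2.05 CPM in IP and 0.798 to 2.48 CPM in Input. Their log2 fold changes lay between -1.71 (Rab39, edgeR adjusted p = 0.125) and -0.24 (Rab32). For Rab39 every IP library was below every Input library, and Rab29, Rab38 and Rab32 overlapped between groups. The fifth gene not called, Rab9b, was well counted (118 ± 26.7 CPM in IP, 98.5 ± 12.7 CPM in Input). The compartment summed to 950 ± 64.6 CPM in IP and 548 ± 7.56 CPM in Input.

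Rab7, which carries late endosomes to the lysosome, had 498.9, 453.6 and 522.0 CPM in IP, against 259.3, 269.8 and 270.2 CPM in Input. It rose 1.84-fold with no overlap (log2 fold change 0.88, SE 0.08, edgeR adjusted p = 3.29e-05). Rab12, which sends recycling receptors to lysosomes, had 177.4, 175.5 and 194.1 CPM in IP, against 89.0, 86.0 and 88.1 CPM in Input (a log2 difference of 1.06, SE 0.08, adjusted p = 1.65e-05). Spread between libraries was small for both genes. Rab24, linked to autophagy, rose less (log2 fold change 0.53, SE 0.11, adjusted p = 0.00431). Of its exonic bases 62.4% also belong to Prelid1 on the opposite strand, whose own log2 fold change was 1.22 (SE 0.10). The strand setting of the counting is not known, so whether reads of the 2 genes were kept apart is not known either. Rab24 also lost its call with library totals and without replicate number 3 (adjusted p of up to 0.0960).

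Rab9 and Rab9b, which return receptors from late endosomes to the Golgi and lie on the X chromosome, differed. Rab9 had 98.3, 64.5 and 79.4 CPM in IP, against 35.5, 38.3 and 36.7 CPM in Input (a log2 difference of 1.13, SE 0.15, edgeR adjusted p = 0.000322). Rab9b had 146.2, 93.6 and 112.7 CPM in IP, against 113.1, 90.5 and 91.8 CPM in Input, which overlapped (adjusted p = 0.222). It was called higher in 1 other setting, without IP replicate 2. Rab9b made up 39.6, 39.0 and 38.4% of the pair's counts per kilobase in IP, against 58.4, 51.0 and 52.3% in Input. Per kilobase, Rab9b was below Rab9 in each IP library and above it in each Input library. By raw counts, with no length, Rab9b was the larger of the pair in both groups, at a mean share of 59.2% in IP and 72.6% in Input. The exact permutation p was 0.1 (adjusted p = 0.180).

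**Figure D4:**
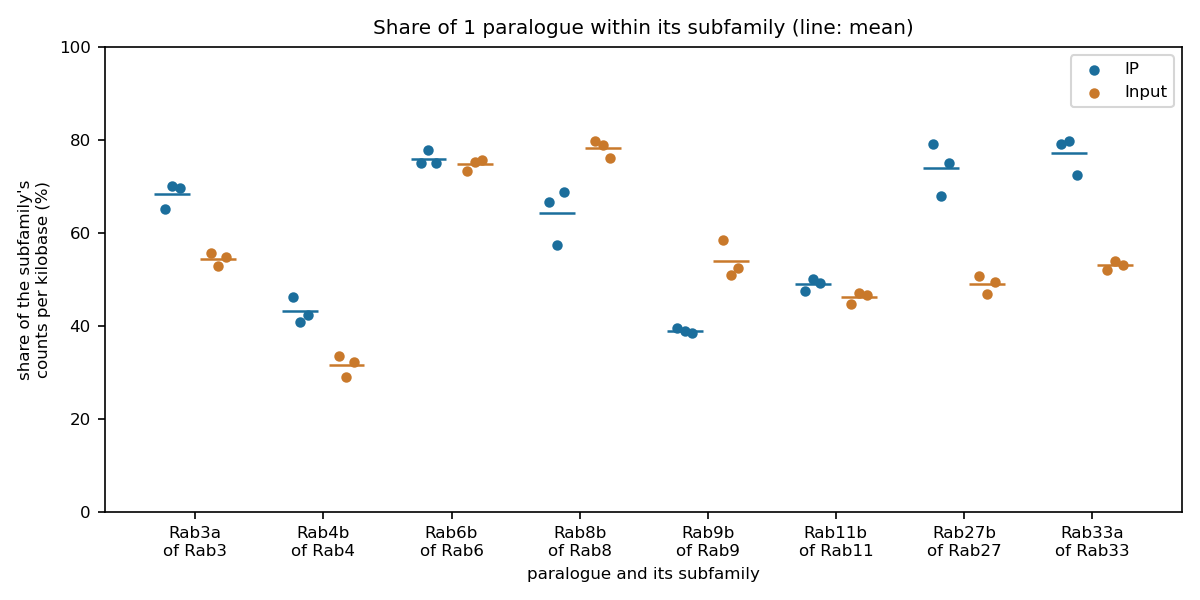
Share of 1 paralogue in the counts per kilobase of its subfamily (y axis, percent) in each of the 3 IP and 3 Input libraries, with means as lines. Rab27b and Rab33a show the widest gaps, and Rab6b none beyond the spread.

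Golgi and ER genes rose in 11 of 18 tested cases, and none fell (median 0.51). The share that rose was 61.1%, beside 23.3% of all genes (24.3% lower). This compartment held most Rab counts, with 7811 ± 403 CPM in IP and 4504 ± 180 CPM in Input. Rab6b, Rab2a, Rab6a, Rab39b and Rab1b rose by 0.84 to 0.92 on the log2 scale. Rab10 and Rab1, which carry cargo to the surface and out of the ER, rose by 0.43 and 0.44, and both lost their calls with library totals (adjusted p of up to 0.0940 and 0.157 over all settings). Rab1 also lost its call with upper-quartile scaling and without replicate number 3.

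Rab6b had 4437, 4269 and 4080 CPM in IP, against 2086, 2367 and 2301 CPM in Input. Each IP library stood far above each Input library (1.89-fold, log2 fold change 0.92, SE 0.07, edgeR adjusted p = 1.62e-05). Its sister Rab6a moved by as much, with 1004 ± 97.4 CPM in IP and 561 ± 14.9 CPM in Input (a log2 difference of 0.84, SE 0.08). Rab6b held 75.9 ± 1.61% of the pair's counts per kilobase in IP and 74.8 ± 1.37% in Input (exact permutation p = 0.6). Rab6a shares 19.0% of its exonic bases with Mrpl48 on the opposite strand, which rose by 0.79. Rab2a, of the traffic between ER and Golgi, had 912.9, 599.6 and 802.0 CPM in IP, against 429.3, 391.3 and 403.8 CPM in Input (a log2 difference of 0.92, SE 0.14, adjusted p = 0.000599). IP libraries of Rab2a varied more than those of Rab6b but did not reach the Input range.

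Rab33a and Rab33b, Golgi Rabs of which Rab33b is known to bind the autophagy protein Atg16l1, moved apart. Rab33a, on the X chromosome, had 64.1, 44.4 and 43.5 CPM in IP, against 20.0, 22.8 and 23.7 CPM in Input (a log2 difference of 1.19, SE 0.17, edgeR adjusted p = 0.00051). Rab33b had 51.5, 34.4 and 50.4 CPM in IP, against 56.5, 59.3 and 63.8 CPM in Input, a log2 fold change of -0.40 that was not called (adjusted p = 0.0631). It was called lower in 8 of 18 other settings. Rab33a made up 79.2, 79.7 and 72.5% of the pair's counts per kilobase in IP, against 51.9, 54.0 and 53.2% in Input (exact permutation p = 0.1).

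Rab8a and Rab8b, which carry membrane from the Golgi to the surface, also differed. Rab8a rose (27.9 ± 3.81 CPM in IP, 16.2 ± 2.47 CPM in Input, a log2 difference of 0.78, SE 0.17, edgeR adjusted p = 0.00506). Rab8b did not pass (51.5 ± 11.1 CPM in IP, 58.7 ± 4.29 CPM in Input, adjusted p = 0.351). The Rab8b share of the pair was 66.7, 57.4 and 68.7% in IP, against 79.7, 78.9 and 76.1% in Input (exact permutation p = 0.1). Rab18, of the ER and lipid droplets, rose by 0.68 and Rab2b by 0.58 (64.0% of Rab2b exonic bases lie opposite other annotated genes). Rab13, Rab34, Rab36, Rab43 and Rab30 were not called, with log2 fold changes between -0.64 and 0.12. For Rab43, 75.35% of the exonic bases also belong to Gm45140 on the same strand. Rab13, known from tight junctions and cell surface transport, had 5.31 ± 1.11 CPM in IP and 8.27 ± 0.178 CPM in Input without overlap (adjusted p = 0.0556), and was called lower in 7 of 18 other settings.

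Of the genes of cilia and other sites, 5 of 6 were tested and 1 was called. Rab23, a negative regulator of Hedgehog signalling in mouse, had 42.5, 56.7 and 57.6 CPM in IP, against 72.0, 80.3 and 77.1 CPM in Input, and fell by 0.55 (log2, SE 0.13, edgeR adjusted p = 0.00761). No IP library reached the Input range. Rab28 had 37.7 ± 6.11 CPM in IP and 37.6 ± 0.712 CPM in Input (adjusted p = 0.978). Rab40b, Rab40c and Rab42 had log2 fold changes between 0.19 and 0.72 and overlapped between groups.

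Genes of proteins that handle Rabs between membrane and cytosol were higher in 5 of 7 cases, with none lower (median 0.43). The share called higher was 71.4%, beside 23.3% of all genes (24.3% lower). Gdi2, a GDI, did not pass (213 ± 15.0 CPM in IP, 201 ± 2.39 CPM in Input). The escort proteins Chm and Chml, which present new Rabs for prenylation, rose by 0.52 and 0.71, and Rabif, which binds Rabs free of nucleotide, by 0.70. Of the prenylating enzyme, the beta subunit Rabggtb rose by 0.43 and the alpha subunit Rabggta was not called (0.33, adjusted p = 0.1). Without replicate number 3, and also with upper-quartile scaling, the count of 5 was 3.

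Exchange factors, GAPs and effectors showed no common direction. Of 31 tested GEFs 11 rose and 10 fell (median -0.26), of 35 GAPs 14 rose and 4 fell (median 0.24), and of 43 effectors 5 rose and 13 fell (median -0.20). Called higher and lower were thus 35.5% and 32.3% of GEFs, 40.0% and 11.4% of GAPs and 11.6% and 30.2% of effectors, beside 23.3% and 24.3% of all genes. GEFs called higher numbered 4 with upper-quartile scaling, library totals or a 5 CPM filter, where the GEF median was 0.014 under the filter. With library totals the GAP median was 0.009, and 9 GAPs and 20 effectors were lower. The higher GEFs were led by Mon1a (33.0 ± 1.5 CPM in IP, 16.9 ± 1.39 in Input, a log2 difference of 0.96) and Mon1b (134 ± 4.59 CPM in IP, 71.5 ± 5.47 in Input, 0.91), and Ccz1 rose by 0.79. A Mon1 protein and Ccz1 together form the exchange factor for Rab7, which was also higher. Ccz1 was named after its value was seen. Dennd2a (-2.48) and Dennd4c (-1.83), GEFs of the DENN family, fell most at levels of at least 5 CPM.

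Among GAPs, Tbc1d9 had 200 ± 16.3 CPM in IP and 80.9 ± 1.75 CPM in Input (a log2 difference of 1.31, SE 0.09, edgeR adjusted p = 8e-06), and Tbc1d8 rose by 0.98. Tbc1d4, which acts on Rab10 in insulin-driven glucose transport, fell by 0.62, and Usp6nl, which acts on Rab5, fell by 0.55. Tbc1d4 lost its call in 9 of 18 other settings, among them without IP replicate 2, without any 1 Input library and when blocked by replicate number (adjusted p = 0.0599), and Usp6nl without replicate number 3. Among effectors, Rab11fip2, a partner of Rab11, and Rabep1, a partner of Rab5 and Rab4, rose by 0.65 and 0.60. Appl2, a Rab5 effector, had 10.6 ± 1.69 CPM in IP and 83.8 ± 9.58 CPM in Input (a log2 difference of -2.98, SE 0.16, adjusted p = 1.88e-06), and Fyco1, which links Rab7 vesicles to kinesin, fell by 2.11 (log2). Glial markers were lower in the same libraries, and their part in these values was not tested. Without 1 Input library fewer GEFs were called, at 4 higher and 6 lower without Input replicate 1, 6 and 5 without Input replicate 2, and 7 and 6 without Input replicate 3. Without IP replicate 3, 7 GEFs were higher, and without IP replicate 1, 10 were higher and 11 lower. GAPs that fell numbered 2, 1 and 2 without Input replicates 1, 2 and 3, and effectors that rose 3 without Input replicate 3.

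**Figure D5:**
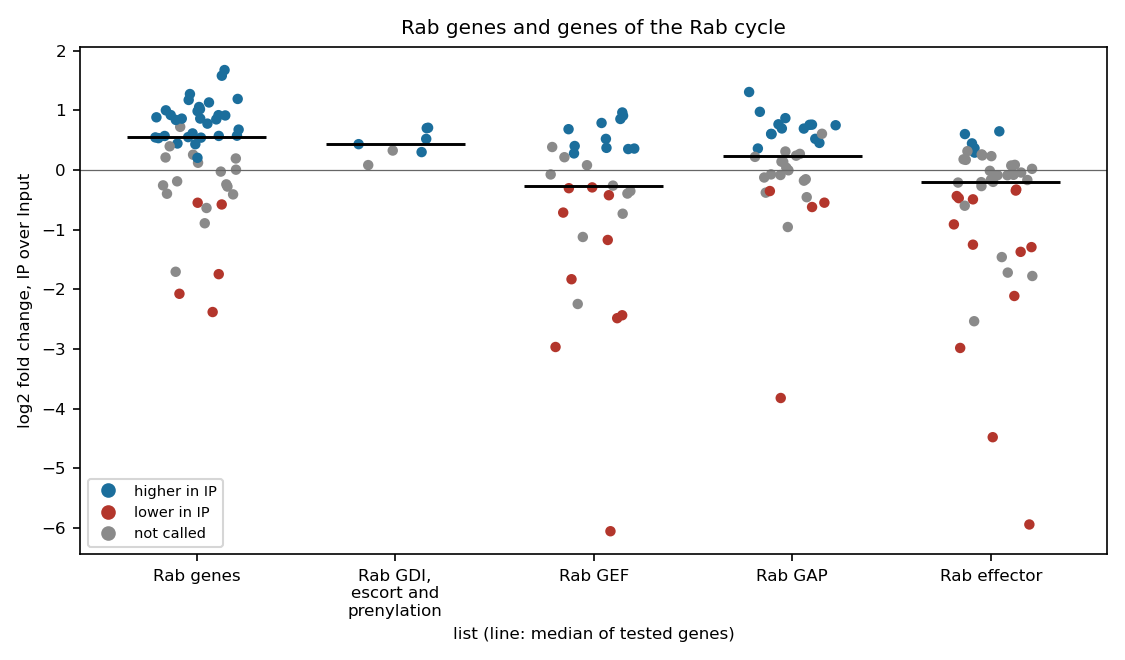
Log2 fold change of IP over Input (y axis) for the tested Rab genes and for 4 lists of genes that act on Rabs (x axis); each point is a gene and lines show medians. Medians are 0.55 for Rab genes, 0.43 for GDI, escort and prenylation genes, -0.26 for GEFs, 0.24 for GAPs and -0.20 for effectors.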

How the data were processed

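Each deposited file listed counts by gene symbol for 1 library, not normalized. The submitters' processing notes name STAR 2.0.0e, HTSeq and mm10 without roles; the HTSeq version, strand setting and annotation are not given in the sources used here. Lines tied to no gene (53.2 to 59.8% of all lines' counts) were left out. In R 4.3.3, genes were filtered with filterByExpr (minimum count 10), scaled by TMM and tested by edgeR 4.0.16's robust quasi-likelihood test, IP against Input, with Benjamini-Hochberg adjustment over all 16898 genes; SEs were derived from the F statistic. DESeq2 1.42.0 and limma-voom (limma 3.58.1) were alternatives, with other scalings and filters, a replicate block and libraries left out. The test was tried on counts simulated from the means and 1 dispersion of the Input libraries. IP pairs differed more (chi-square per degree of freedom 42.1 to 134) than Input pairs (11.8 to 20.8). The simulation therefore does not cover the noise of the IP libraries. Replicate pairs differed beyond sampling noise (chi-square per degree of freedom 11.8 to 134), so each library was 1 sample. Nothing says that replicates are separate animals, so p-values cover the spread of these libraries alone, which may be technical. Members, lists and tests were chosen with earlier results of these data known. Named genes were, per compartment, up to 3 called genes in each direction at a mean of at least 5 CPM, the most counted member and all Rab3 genes; per regulator list, up to 2 in each direction, and the GDI, escort and prenylation genes, of which 1 is not reported here; others, also the promoters shown, were chosen after their values were seen. Zfyve20 was read as Rbsn, Rab1 as Rab1a. Coordinates, exon lengths and overlaps are from GENCODE M21 (mm10), promoters from RefSeq.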

Additional observations from a re-analysis of the deposited data

How the results depend on the processing

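Rab genes called higher numbered 25 to 31 over 18 other settings, and 25 of the 31 kept their call in every one. Of the 5 called lower, 4 did, the exception being Rab27a. Rab3c was the 1 Rab gene whose value changed sign from a call, to -0.035 with library totals. Library totals and limma-voom each gave 8 Rab genes lower, and library totals gave 2458 genes higher over all genes. Among the 53 tested members, calls gained were Rab33b in 8 settings, Rab13 in 7, Rab39 in 2 and Rab8b, Rab9b and Rab40c in 1 each. Of the 5 members not tested, Rab25 was called lower with no filter (adjusted p = 0.0147) and Rab19 without replicate number 3 (adjusted p = 0.0368). Leaving out libraries gave 27 to 31 Rab genes higher and 4 to 6 lower. Replicate numbers shared lane codes, and whether they pair the samples could not be settled. The correlation of deviations over 16898 genes was 0.09, 0.04 and 0.02 in numbers 1 to 3. Each IP library correlated best with its own number only for numbers 1 and 2. Ttr, an ependymal and choroid plexus marker picked after its values were seen, was lowest in number 1 of both groups. It had 0, 40.6 and 35.1 CPM in IP, against 2.78, 477 and 542 CPM in Input. No block was used in the reported fit. With the replicate block 30 Rab genes were higher and 5 lower, and 1 Golgi and ER gene was lower in place of 0.

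The median of all genes was -0.25 with upper-quartile scaling and -0.31 with library totals, in place of -0.07, and list medians moved with it. With upper-quartile scaling they were 0.37 (Rab genes), 0.018 (cilia and other), 0.44 (early and recycling endosome), 0.33 (Golgi and ER), -0.38 (effectors), 0.062 (GAPs), 0.26 (GDI, escort and prenylation) and -0.44 (GEFs). With library totals they were 0.31, -0.058, 0.37, 0.27, -0.43, 0.009, 0.20 and -0.51 in the same order, and 0.011 for late endosome and lysosome. With DESeq2 size factors they were 0.50 (Rab genes), -0.24 (effectors), 0.20 (GAPs) and 0.39 (GDI, escort and prenylation), and 0.50, -0.24, 0.20 and 0.39 by the DESeq2 test. At a mean of at least 5 CPM, which covers fewer genes, they were 0.41 (Rab genes), -0.16 (cilia and other), 0.45 (early and recycling endosome), 0.72 (late endosome and lysosome), -0.26 (effectors), 0.11 (GAPs), 0.27 (GDI, escort and prenylation) and 0.014 (GEFs).

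Golgi and ER genes called lower numbered 3 with library totals and 2 each with upper-quartile scaling, DESeq2 size factors, the 5 CPM filter, the DESeq2 test and limma-voom. Without a filter 2 endosome genes were lower, and limma-voom called 1 late endosome gene lower. Effectors called higher were 3 (upper-quartile), 2 (library totals) and 3 (5 CPM filter), and 20 were lower with library totals. GAPs called higher were 9 with library totals, and lower 9 (upper-quartile), 9 (library totals), 2 (no filter) and 8 (5 CPM filter). GEFs called higher were 4 under each of upper-quartile, library totals and the 5 CPM filter, and GDI, escort and prenylation genes 3 and 2 with upper-quartile and library totals. By raw counts, differences in share were 9.98 (Rab3a), -1.19 (Rab3b), -8.79 (Rab3c) and 16.1 percentage points (Rab27b), since no length enters.

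Leaving out libraries or replicate numbers, calls ran from 0 to 1 (cilia and other, higher), 0 to 2 (Golgi and ER, lower), 0 to 1 (late endosome, lower), 2 to 7 (effectors, higher), 3 to 6 (GDI, escort and prenylation, higher), 4 to 10 (GEFs, higher), 5 to 11 (GEFs, lower) and 1 to 6 (GAPs, lower). Medians ran from 0.026 to 0.26 (cilia and other), 0.61 to 0.70 (early and recycling endosome), -0.21 to -0.15 (effectors), 0.19 to 0.36 (GAPs) and 0.39 to 0.49 (GDI, escort and prenylation). Beyond the stated constructions, the cause was not tested. None of the 9 tested members under 10 CPM was called in the reported fit.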
